A study of Mus musculus with 28 samples.

Results

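The 31 genes described here encode glucose and lactate transporters, the enzymes of glycolysis, the HIF subunits and the oxygen-sensing hydroxylases that act on them, and further genes that HIF-1 is known to switch on. They were picked by name from 54424 named genes in counts of primary mouse microglia. The row with the highest total was kept where a symbol stood more than once. The microglia carried APOE3S/S (labelled Christchurch) or APOE3 (labelled WT) and were given tau, amyloid or nothing. There were 6 tau, 3 amyloid and 4 untreated APOE3S/S libraries, and 6 tau, 3 amyloid and 6 untreated APOE3 libraries, 28 in all. The titles split them into 17 libraries marked SAN, which include all amyloid libraries, and 11 of a second series. The labels do not say what that split stands for. The labels do not say whether replicates came from separate animals or cultures, so p-values measure the spread between these libraries, which may be technical. The mice's age, the dose and form of tau and amyloid, the time of exposure and any vehicle stand in none of the labels used here.

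Glycolysis splits glucose into pyruvate in the cytosol, and lactate dehydrogenase turns pyruvate into lactate, which leaves the cell through monocarboxylate transporters. HIF-1 is a transcription factor whose α subunit, from Hif1a, is hydroxylated by the EGLN enzymes when oxygen is present and then degraded, and inflammatory signals in macrophages can raise it without low oxygen. Many glycolytic genes carry hypoxia response elements, and macrophages and microglia are known to raise glycolysis when they are activated by inflammatory stimuli.

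HIF-1 binds DNA at a short core that reads ACGTG or GCGTG. Promoters were read from RefSeq (GRCm38.p6), 250 bases before to 50 after a gene's start, and both cores were searched on both strands. The E-box CACGTG holds ACGTG on either strand and was counted as 2 matches. RefSeq gave a promoter for 28 of the 31 genes, all but Slc2a3, Epas1 and Ndrg1. Shares were taken over the first promoter that RefSeq lists for a gene. ACGTG stood in 17 of the 28 (60.7%), against 19.7% of 27025 promoters of all genes and 25.8% of 9956 promoters of genes tested with tau. GCGTG stood in 16 of the 28 (57.1%), against 32.5% of all promoters and 51.2% of those of tested genes. Either core stood in 23 of the 28 (82.1%), against 43.8% of all and 62.7% of tested genes. A match describes the letters and not a bound site. 5 promoters are shown, with the core in capitals (CACGT and CACGC are the cores read on the other strand). Hif1a and Hk2 are shown as the members that passed the test with tau in both genotypes, Slc2a1 and Pgk1 as those whose tau response differed between the title series in both genotypes, and Slc16a3 as the member that differed between tau and amyloid in both.
Hif1a, chr12:73907617-73907916, plus strand: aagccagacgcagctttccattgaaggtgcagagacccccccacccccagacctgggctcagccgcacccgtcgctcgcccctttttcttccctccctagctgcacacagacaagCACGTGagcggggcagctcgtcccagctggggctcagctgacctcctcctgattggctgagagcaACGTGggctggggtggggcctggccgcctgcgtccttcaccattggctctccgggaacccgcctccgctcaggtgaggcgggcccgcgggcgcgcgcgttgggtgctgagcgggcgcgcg
Hk2, chr6:82774405-82774704, minus strand: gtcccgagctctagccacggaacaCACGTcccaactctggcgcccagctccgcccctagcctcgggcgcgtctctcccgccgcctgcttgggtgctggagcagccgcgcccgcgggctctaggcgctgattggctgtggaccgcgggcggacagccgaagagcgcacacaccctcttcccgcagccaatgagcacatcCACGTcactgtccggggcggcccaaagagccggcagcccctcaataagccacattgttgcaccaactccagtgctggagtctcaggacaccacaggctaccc
Slc2a1, chr4:119108495-119108794, plus strand: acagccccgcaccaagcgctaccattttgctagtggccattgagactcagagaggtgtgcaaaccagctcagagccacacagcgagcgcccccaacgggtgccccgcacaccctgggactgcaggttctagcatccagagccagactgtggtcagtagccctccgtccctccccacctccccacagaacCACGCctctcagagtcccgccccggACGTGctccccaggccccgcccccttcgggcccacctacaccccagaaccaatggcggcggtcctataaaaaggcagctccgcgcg
Pgk1, chrX:106186850-106187149, plus strand: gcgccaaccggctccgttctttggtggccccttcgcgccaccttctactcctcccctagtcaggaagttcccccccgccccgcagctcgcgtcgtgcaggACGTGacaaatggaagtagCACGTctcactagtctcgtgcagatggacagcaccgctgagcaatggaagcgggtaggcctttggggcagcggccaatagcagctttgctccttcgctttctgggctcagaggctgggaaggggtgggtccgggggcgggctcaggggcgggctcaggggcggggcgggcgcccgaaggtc
Slc16a3, chr11:120948817-120949116, plus strand: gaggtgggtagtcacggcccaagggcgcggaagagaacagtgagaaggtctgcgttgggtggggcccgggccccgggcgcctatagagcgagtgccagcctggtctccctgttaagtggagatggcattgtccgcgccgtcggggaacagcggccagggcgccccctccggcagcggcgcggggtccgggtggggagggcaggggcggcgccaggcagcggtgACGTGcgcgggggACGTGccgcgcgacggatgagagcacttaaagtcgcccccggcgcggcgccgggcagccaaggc
The Hif1a stretch held an E-box that starts 135 bases before the start site, and an ACGTG 70 bases before it. Slc16a3 had its 2 ACGTG cores 27 and 14 bases before the start. Hk2 held its cores 226 and 52 bases before the start, and Pgk1 150 and 131 bases before it. Slc2a1 was the only one of the 5 with GCGTG, at 61 bases before the start, beside an ACGTG at 36. The first promoter of Ldha, which is not printed, held 5 ACGTG and 2 GCGTG matches, while those of Gpi1, Tpi1, Pkm, Hk1 and Vegfa held neither core. The second promoters listed for Pkm, Hk1 and Vegfa did hold one or both.

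Libraries held 14.46 to 27.21 M counts and 17299 to 20020 genes with a count, and mitochondrial genes took 0.934 to 1.79% of the counts. The 31 genes took 0.535 to 0.798% of the counts in APOE3S/S tau libraries against 0.511 to 0.558% in untreated APOE3S/S ones, and 0.569 to 0.729% in APOE3 tau libraries against 0.496 to 0.552% in untreated APOE3 ones. Microglial markers were abundant in part. Csf1r (the receptor for CSF1) ran from 2018 to 3333 CPM, the count scaled to a common library size, and the complement gene C1qa from 1660 to 4461 CPM, but Tmem119 reached only 5.84 CPM and Siglech was at 0 in 24 of 28 libraries. In these bulk samples, fewer cells of a type and less RNA per cell cannot be told apart. Values of Gapdh and Eno1 are uncertain. Of the 31-base words in the last 400 bases of their transcripts, where this 3′ kit reads, 93.5% and 89.7% stood in other genes too, closest being Gm7336 and Eno1b. Genes on the opposite strand cover the 3′ ends of Slc2a1, Pfkp, Tpi1, Gapdh, Hif1a, Ankrd37 and Adm, and whether counting used strand is not given in the sources used here. Gm49321, which lies on the same strand over the Hif1a end, had 0.0 CPM in all 28 libraries.

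With tau, Hif1a and the hexokinase Hk2 rose in both genotypes. In APOE3S/S microglia these were the only 2 of 30 tested members that passed the test (edgeR quasi-likelihood, adjusted p under 0.05 over all genes), both upward, beside a background of 2.12% of all tested genes higher and 1.14% lower. In APOE3 microglia 9 of 30 rose and 4 fell, beside 8.97% of all tested genes higher and 5.87% lower. The rises in APOE3 were Hif1a, Pfkl, Hk2, Slc2a6, Pkm, Slc16a3, Hk1, Eno1 and P4ha1, and the falls Ndrg1, Epas1, Slc16a1 and Slc2a3. The median log2 fold change over the 30 was 0.19 in APOE3S/S and 0.18 in APOE3, against -0.01 and -0.02 over all 13902 genes tested. In sign, 23 of the 30 were positive in APOE3S/S and 19 in APOE3. Adm, the gene of the vasodilator peptide adrenomedullin, fell under the filter on low counts and was not tested, with at most 0.777 CPM in any library. The plot of log2 fold changes sets both genotypes side by side. Both fits carry the title series as a term. With that term left out, no member passed in APOE3S/S and 6 passed in APOE3, and the members that depend on the series are given below.

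**Figure D1:**
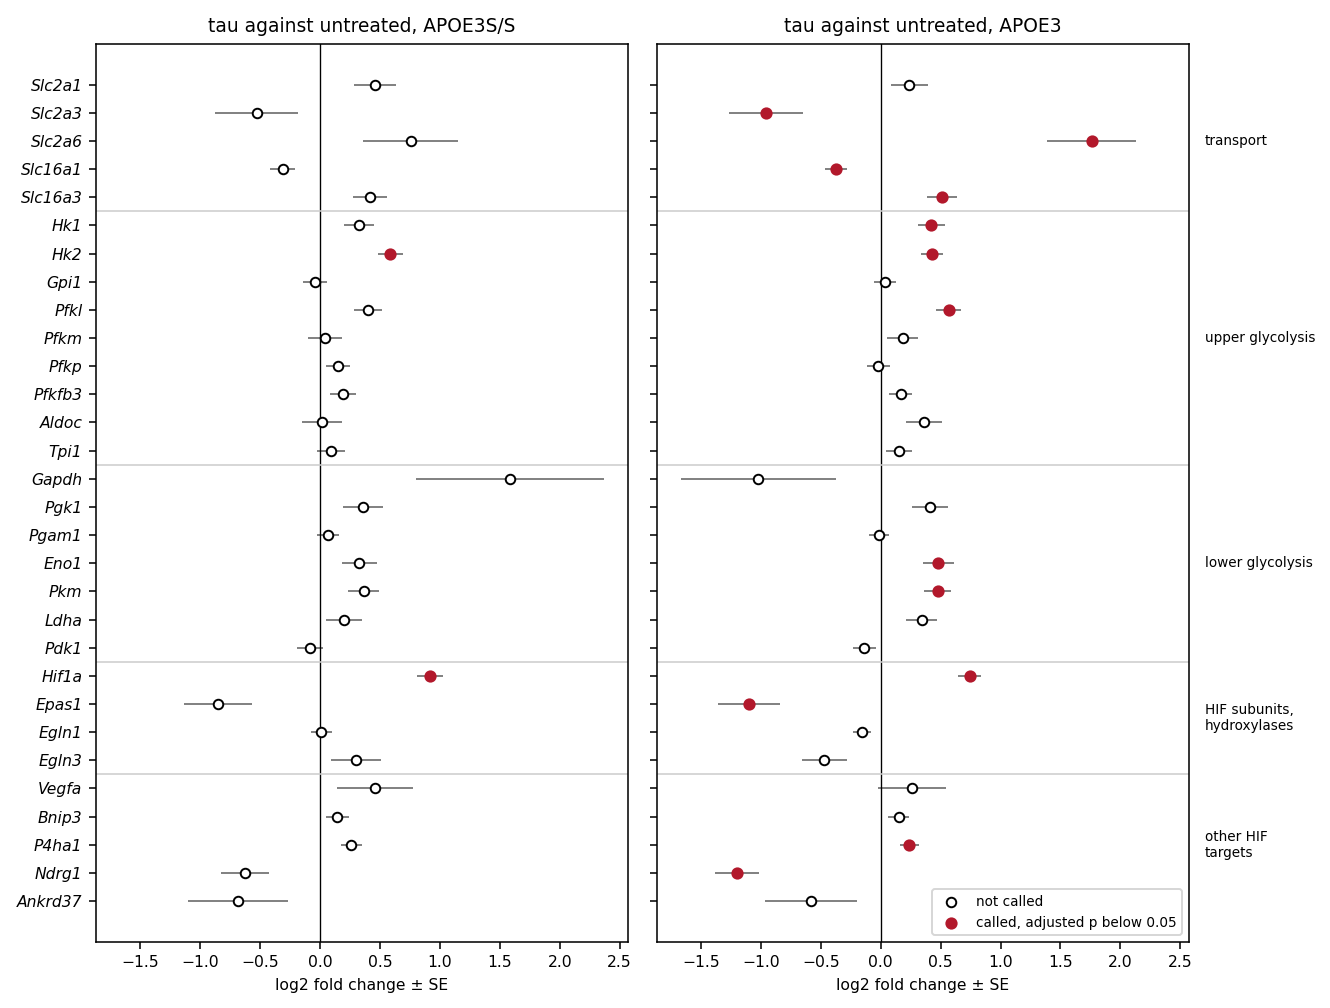
Log2 fold change of each of the 30 tested members, tau over untreated, in APOE3S/S (left panel) and APOE3 (right panel), with bars of 1 SE, grouped by role; filled points passed the test. Hif1a and Hk2 are filled in both panels, and 11 further members only in the APOE3 panel.

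Among the HIF subunits and hydroxylases, Hif1a gave the smallest p of the 30 in both genotypes. It measured 346, 243 and 361 CPM in SAN and 252, 249 and 187 CPM in second-series APOE3S/S tau libraries, against 173 and 158 CPM in SAN and 136 and 111 CPM in second-series untreated APOE3S/S libraries. The lowest tau library lay above the highest untreated one. The log2 fold change was 0.92 ± 0.11 (SE, adjusted p = 0.000351), or 88.9% higher. In APOE3, Hif1a measured 286, 292 and 323 CPM in SAN and 247, 210 and 239 CPM in second-series tau libraries, against 161, 180 and 225 CPM in SAN and 136, 151 and 135 CPM in second-series untreated ones. Within each title series the APOE3 groups did not overlap, although the highest untreated SAN library stood above the lowest second-series tau library. The log2 fold change was 0.74 ± 0.10 (adjusted p = 0.000133). SAN libraries alone gave 1.00 and second-series libraries alone 0.84 in APOE3S/S, and 0.77 and 0.74 in APOE3 (log2), and the call held without any 1 library of the compared groups in either genotype.

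Epas1, which encodes the HIF-2α subunit, moved the other way in APOE3. In APOE3S/S the tau libraries ran from 53.5 to 79.7 CPM (median 59.5), against 270, 129, 73.6 and 49.9 CPM untreated, and the log2 change of -0.85 ± 0.29 did not pass (adjusted p = 0.0981). In APOE3 it ran from 40.2 to 59.7 CPM (median 51.9) in tau libraries, against 45.4 to 215 CPM (median 125) in untreated ones, a log2 change of -1.10 ± 0.26 (adjusted p = 0.006). All 3 SAN APOE3 tau libraries, at 57.9, 57.3 and 45.2 CPM, lay below the SAN untreated ones at 166, 213 and 215 CPM. Second-series APOE3 libraries overlapped, at 40.2 to 59.7 CPM with tau against 45.4 to 82.8 CPM untreated. The hydroxylases Egln1 and Egln3, which mark HIF-α subunits for degradation, did not pass in either genotype. Their log2 changes were 0.01 and 0.30 in APOE3S/S, and -0.16 and -0.47 in APOE3.

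**Figure D2:**
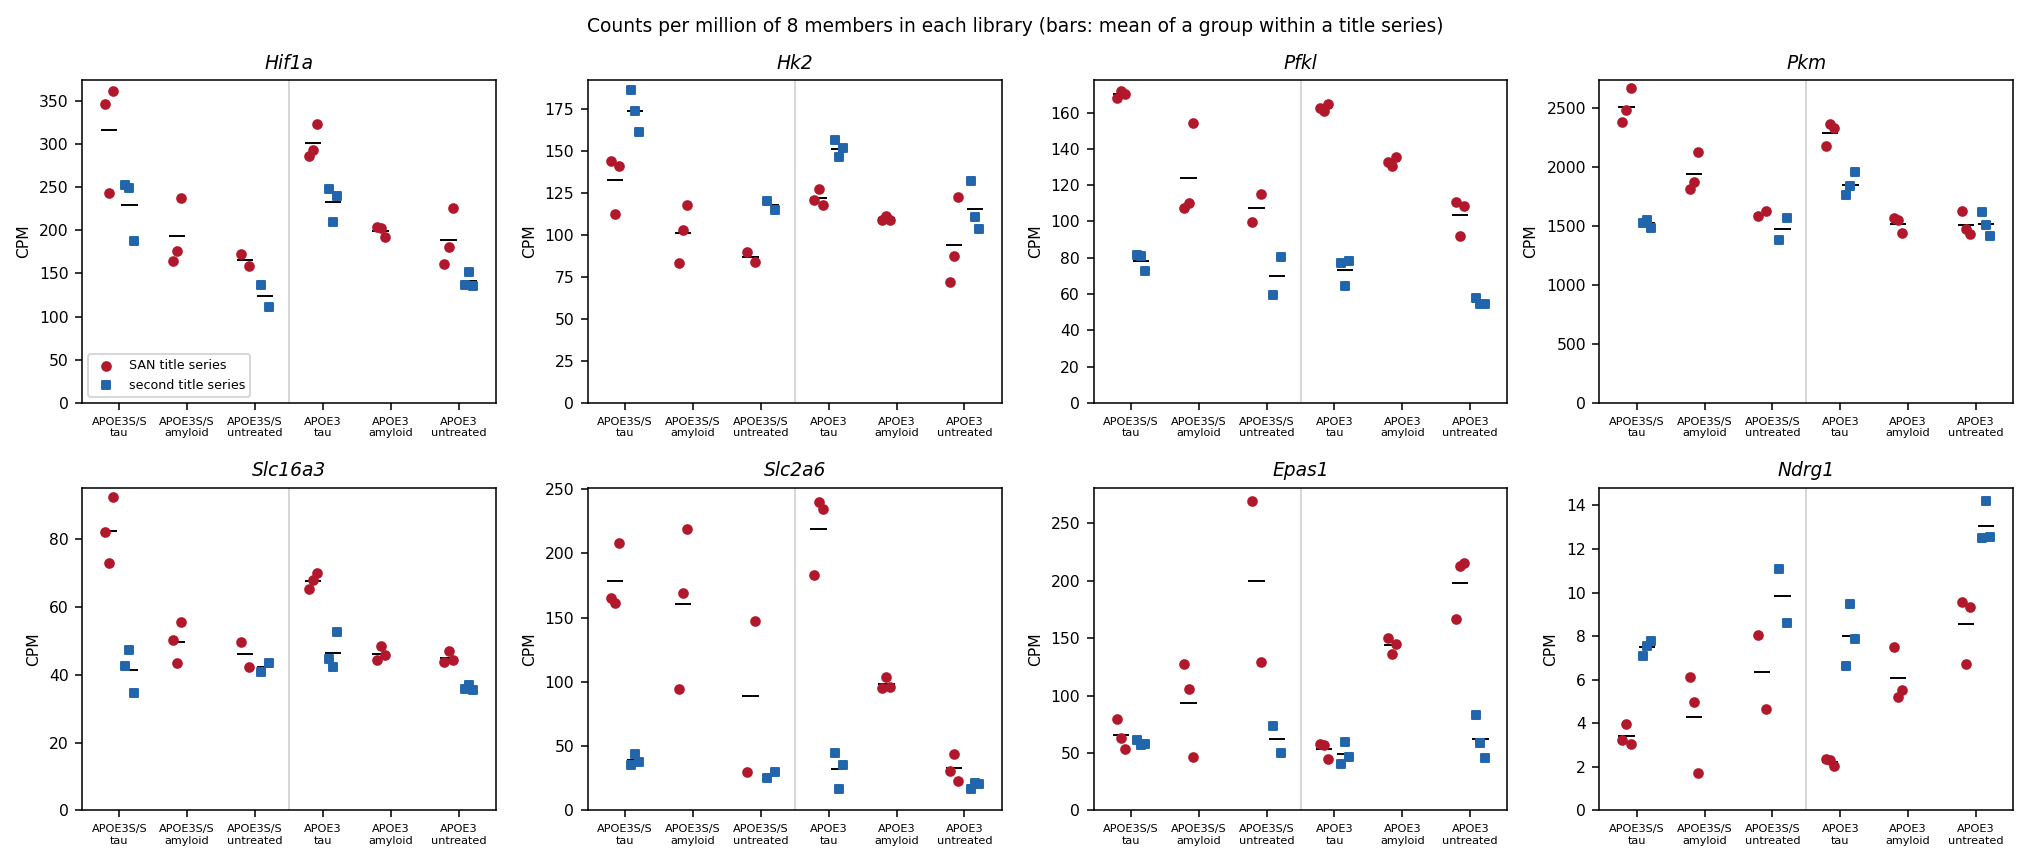
CPM of 8 members in every library, by genotype and treatment, with SAN libraries as red circles and second-series libraries as blue squares; bars mark the mean of a group within a series. Hif1a and Hk2 are higher with tau in both series, whereas Slc2a6 with tau reaches 240 CPM in SAN and 44.3 CPM in second-series APOE3 libraries.

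Of the 5 transporters, Slc2a6 (the facilitative transporter GLUT6, which sits largely on intracellular membranes) and Slc16a3 (the lactate exporter MCT4) rose with tau in APOE3, and Slc16a1 (the monocarboxylate transporter MCT1) and Slc2a3 (the glucose transporter GLUT3) fell. In APOE3S/S, Slc2a6 ran from 35.2 to 208 CPM (median 103) with tau, against 30.1, 147, 25.3 and 30.0 CPM untreated, and did not pass (0.76 ± 0.40, adjusted p = 0.307). Within each series its tau libraries there lay above the 2 untreated ones without overlap. The 147 CPM library stood apart from the other untreated APOE3S/S libraries, and without it the log2 change was 1.12 and still not called. Slc2a6 ran from 16.4 to 240 CPM (median 114) in APOE3 tau libraries, against 16.3 to 44.0 CPM (median 22.2) in untreated ones. The SAN tau libraries, at 183, 240 and 235 CPM, stood far above every untreated APOE3 library, and the second-series ones, at 44.3, 16.4 and 35.6 CPM, overlapped them. The log2 change was 1.76 ± 0.37 (adjusted p = 0.00239).

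In APOE3S/S, Slc16a3 had a log2 change of 0.42 ± 0.15 (adjusted p = 0.11) and Slc16a1 one of -0.31 ± 0.10 (adjusted p = 0.0875), neither passing the test. Slc16a1 with tau lay below untreated there within each series without overlap. Slc16a3 lay higher without overlap in SAN and overlapped in the second series. Slc16a3 ran from 42.4 to 69.9 CPM (median 58.9) in APOE3 tau libraries, against 35.4 to 47.0 CPM (median 40.5) untreated, a log2 change of 0.51 ± 0.13 (adjusted p = 0.0084). Within each series the groups did not overlap. In the same APOE3 groups Slc16a1 ran from 20.2 to 28.3 CPM (median 22.7) with tau, against 25.1 to 35.8 CPM (median 30.1) untreated (log2 -0.37 ± 0.09, adjusted p = 0.00753). Its groups overlapped only through second-series libraries. Slc2a3 was scarce, at 0.634 to 1.39 CPM with tau against 1.02 to 2.75 CPM untreated in APOE3 (log2 -0.96 ± 0.31, adjusted p = 0.0402). Its call was lost in 8 of the 12 fits that each left out 1 library. Slc2a1, the gene of the main basal glucose transporter GLUT1, did not pass in APOE3S/S (0.46 ± 0.18, adjusted p = 0.147) or APOE3 (0.24 ± 0.16, adjusted p = 0.348). It ran from 82.5 to 117 CPM with tau against 60.6, 53.6, 96.4 and 77.2 CPM untreated in APOE3S/S, and from 90.2 to 117 CPM against 67.5 to 129 CPM in APOE3.

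In upper glycolysis, Hk2, the hexokinase that is induced in activated cells and traps glucose as its phosphate, rose in both genotypes. It measured 144, 113 and 141 CPM in SAN and 187, 174 and 162 CPM in second-series APOE3S/S tau libraries, against 89.7 and 84.2 CPM in SAN and 121 and 115 CPM in second-series untreated ones. Tau and untreated libraries did not overlap within either series. The log2 change was 0.59 ± 0.10 (adjusted p = 0.00783). In APOE3 it measured 121, 127 and 118 CPM in SAN and 157, 146 and 152 CPM in second-series tau libraries, against 72.3, 87.5 and 123 CPM in SAN and 132, 111 and 104 CPM in second-series untreated ones (log2 0.43 ± 0.09, adjusted p = 0.00218). Second-series APOE3 groups were apart, while 1 untreated SAN library reached into the SAN tau range. The call held in each fit without 1 library in both genotypes. Series alone gave 0.67 in SAN and 0.51 in the second series for APOE3S/S, and 0.47 and 0.41 for APOE3 (log2).

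Pfkl, the liver-type subunit of phosphofructokinase, ran from 72.5 to 172 CPM (median 125) in APOE3S/S tau libraries, against 99.6, 115, 59.6 and 80.6 CPM untreated, and missed the threshold at 0.40 ± 0.12 (adjusted p = 0.0648). It passed in APOE3, where it ran from 64.3 to 165 CPM (median 120) in APOE3 tau libraries, against 54.5 to 111 CPM (median 75.0) untreated (log2 0.57 ± 0.11, adjusted p = 0.001). In APOE3, SAN libraries lay above second-series libraries in both groups, and tau exceeded untreated in each series without overlap. Hk1, the constitutive hexokinase, did not pass in APOE3S/S (log2 0.33 ± 0.13, adjusted p = 0.146). Within each series there, Hk1 with tau lay above untreated without overlap. It ran from 37.2 to 77.8 CPM (median 47.2) in APOE3 tau libraries, against 31.01 to 42.6 CPM (median 41.2) untreated (log2 0.42 ± 0.11, adjusted p = 0.0125). Only the SAN tau libraries stood above all untreated ones.

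The other 6 members of upper glycolysis did not pass in either genotype. They were the isomerases Gpi1 and Tpi1, the phosphofructokinase subunits Pfkm and Pfkp, the aldolase Aldoc and Pfkfb3, which makes the activator of phosphofructokinase. Pfkfb3 ran from 84.8 to 115 CPM with tau against 102, 106, 81.8 and 61.7 CPM untreated in APOE3S/S (log2 0.19 ± 0.11, adjusted p = 0.359), and from 94.8 to 115 CPM against 75.7 to 117 CPM in APOE3 (0.17 ± 0.10, adjusted p = 0.275). The rest lay between -0.04 and 0.15 in APOE3S/S and between -0.02 and 0.36 in APOE3 (log2). Over both series all these groups overlapped. Within a series, Gpi1 with tau lay above untreated in SAN and below it in the second series in both genotypes, without overlap. In APOE3S/S, Pfkp and Tpi1 in SAN and Pfkfb3 in the second series lay higher with tau without overlap, and Aldoc in the second series lower. In APOE3, Pfkm and Aldoc in SAN lay higher without overlap. With 3 tau and 2 untreated APOE3S/S libraries a series, groups can lie apart by chance. The share of all genes so separated was not counted, here or where other members are said not to overlap. A miss of the threshold does not show that levels were equal.

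In lower glycolysis, Pkm (pyruvate kinase of muscle type, the form macrophages use) and Eno1 (the main enolase) did not pass in APOE3S/S and rose in APOE3. The log2 changes in APOE3S/S were 0.36 ± 0.13 for Pkm (adjusted p = 0.118) and 0.33 ± 0.15 for Eno1 (adjusted p = 0.215). Pkm ran from 1761 to 2362 CPM (median 2066) in APOE3 tau libraries, against 1419 to 1627 CPM (median 1491) untreated. Eno1 ran from 822 to 1090 CPM (median 971) with tau, against 617 to 750 CPM (median 730) untreated in APOE3. For neither gene did the APOE3 groups overlap, over the libraries of both series. The log2 changes in APOE3 were 0.47 ± 0.12 for Pkm (adjusted p = 0.00666) and 0.48 ± 0.13 for Eno1 (adjusted p = 0.0131).

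Pgk1 (phosphoglycerate kinase) missed the threshold in APOE3S/S, at 0.36 ± 0.17 (adjusted p = 0.239), and in APOE3, at 0.41 ± 0.15 (adjusted p = 0.0646). Ldha, which makes lactate from pyruvate, ran from 565 to 826 CPM with tau against 532, 597, 568 and 682 CPM untreated in APOE3S/S (log2 0.20 ± 0.15, adjusted p = 0.484), and from 596 to 801 CPM against 413 to 665 CPM in APOE3 (0.34 ± 0.13, adjusted p = 0.0872). Pgam1, the phosphoglycerate mutase, and Pdk1, a pyruvate dehydrogenase kinase, lay between -0.08 and 0.07 in APOE3S/S and between -0.14 and -0.02 in APOE3 (log2). Gapdh, often used as a reference gene, lay between 6.02 and 11.6 CPM in 24 libraries but at 96.0 CPM in 1 APOE3S/S tau library, 40.5 CPM in 1 APOE3 tau library, and 112 and 29.9 CPM in 2 untreated APOE3 libraries. Its log2 changes of 1.58 ± 0.78 in APOE3S/S (adjusted p = 0.271) and -1.02 ± 0.65 in APOE3 (adjusted p = 0.33) had opposite signs, with these libraries among those compared. In APOE3S/S, Gapdh with tau lay above untreated without overlap in each series. In SAN, which lacks the 96.0 CPM library, the means were 11.2 and 6.92 CPM. No Gapdh result is read from these changes.

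Of the other HIF targets, Ndrg1, a stress-responsive gene that hypoxia is known to induce, fell in APOE3. Its log2 change in APOE3S/S was -0.63 ± 0.20 and did not pass (adjusted p = 0.0833). Tau libraries nevertheless lay below untreated ones within each series there, and DESeq2 called it lower. In APOE3 it measured 2.36, 2.33 and 2.03 CPM in SAN and 6.63, 9.48 and 7.88 CPM in second-series tau libraries, against 9.55, 6.72 and 9.35 CPM in SAN and 12.5, 14.2 and 12.5 CPM in second-series untreated ones. The groups were apart within each series, and the log2 change was -1.20 ± 0.18 (adjusted p = 0.000235). P4ha1, a subunit of the enzyme that hydroxylates collagen, missed the threshold in APOE3S/S (0.26 ± 0.09, adjusted p = 0.0915) and rose by 0.24 ± 0.08 in APOE3 (adjusted p = 0.0366), at 121 to 152 CPM (median 140) with tau against 104 to 144 CPM (median 119) untreated. Those ranges overlapped, also within each series, and the call was lost in 6 of the 12 fits without 1 library. In APOE3S/S, P4ha1 with tau lay above untreated within each series without overlap, and DESeq2 called it higher. Vegfa, the gene of the angiogenic growth factor, ran from 26.3 to 44.3 CPM with tau against 39.5, 9.68, 21.8 and 18.9 CPM untreated in APOE3S/S (log2 0.46 ± 0.32, adjusted p = 0.448), and from 13.4 to 59.7 CPM against 19.6 to 31.4 CPM in APOE3 (0.26 ± 0.28, adjusted p = 0.605). Bnip3, a mitophagy receptor, and the ankyrin repeat gene Ankrd37 had log2 changes of 0.14 and -0.68 in APOE3S/S and of 0.15 and -0.58 in APOE3, with none called.

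For several members the tau response depended on the title series. In SAN alone, 8 members rose and 1 fell in APOE3S/S, beside 2.5% of all tested genes higher and 2.11% lower, and 10 rose and 4 fell in APOE3, beside 11.7% higher and 7.27% lower. Eno1, Hif1a, Hk1, Pfkl, Pgk1, Pkm, Slc16a3 and Slc2a1 rose there in both genotypes, and Epas1 fell in both. The APOE3S/S calls rest on 2 untreated libraries. Ldha and Slc2a6 rose, and Ankrd37, Ndrg1 and Slc16a1 fell, in SAN APOE3 libraries alone. In the second series alone, Hif1a and Hk2 rose and no member fell in APOE3S/S, beside 1.64% higher and 0.617% lower, and Hif1a, Hk2 and Vegfa rose and Ndrg1 fell in APOE3, beside 1.91% higher and 0.644% lower. Hk2 did not pass in SAN alone in either genotype, with log2 changes of 0.67 ± 0.18 in APOE3S/S and 0.47 ± 0.16 in APOE3. The difference between the series was tested in itself, as the tau effect in SAN minus that in the second series. In APOE3S/S 5 members had a higher log2 effect in SAN, beside a background of 0.539%, and none a lower one, beside 0.41%. In APOE3 4 members had a higher effect in SAN, beside 2.92%, and 3 a lower one, beside 2.69%.

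Hif1a and Hk2 did not pass the test of the series difference in either genotype. For Hif1a the difference was 0.14 ± 0.22 in APOE3S/S (adjusted p = 0.756) and 0.01 ± 0.20 in APOE3 (adjusted p = 0.983), and for Hk2 it was 0.15 ± 0.21 (adjusted p = 0.719) and 0.05 ± 0.18 (adjusted p = 0.938). Slc2a1 and Pgk1 did pass it in both genotypes. Slc2a1 measured 105, 96.3 and 117 CPM with tau against 60.6 and 53.6 CPM untreated in SAN APOE3S/S libraries, and 82.5, 87.4 and 88.3 CPM against 96.4 and 77.2 CPM in second-series ones. In APOE3 it measured 91.4, 103 and 117 CPM with tau against 71.8, 67.5 and 70.7 CPM untreated in SAN, and 90.2, 109 and 112 CPM against 129, 107 and 106 CPM in the second series. Tau libraries were thus above untreated ones in SAN and overlapped them in the second series, and the untreated levels of the 2 series did not overlap. The series difference in log2 effect was 1.01 ± 0.18 in APOE3S/S (adjusted p = 0.0106) and 0.77 ± 0.16 in APOE3 (adjusted p = 0.0081). For Pgk1 it was 1.00 ± 0.17 (adjusted p = 0.0101) and 0.72 ± 0.15 (adjusted p = 0.00706). Pgk1 measured 436, 454 and 500 CPM with tau against 260 and 274 CPM untreated in SAN APOE3S/S libraries, and 280, 302 and 289 CPM against 304 and 319 CPM in second-series ones.

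In APOE3S/S alone, Slc16a3 (0.98 ± 0.18, adjusted p = 0.0106), Eno1 (0.92 ± 0.18, adjusted p = 0.0152) and Pkm (0.71 ± 0.15, adjusted p = 0.031) also passed the test of the series difference. Slc16a3 measured 82.2, 73.1 and 92.3 CPM with tau against 49.6 and 42.5 CPM untreated in SAN, and 42.5, 47.3 and 34.8 CPM against 40.9 and 43.6 CPM in the second series. These 5 calls rest on 2 untreated APOE3S/S libraries a series, and without replicate 1 of that group none of the 5 was called, and without replicate 4 only Slc2a1. Without replicate 2 or 3 there were 10 and 11 calls. In APOE3 alone, Hk1 (0.59 ± 0.16, adjusted p = 0.0319) and Slc2a6 (2.08 ± 0.57, adjusted p = 0.038) had the higher effect in SAN. Epas1 (-1.47 ± 0.32, adjusted p = 0.00902), Ndrg1 (-1.16 ± 0.27, adjusted p = 0.0153) and Vegfa (-1.41 ± 0.40, adjusted p = 0.0441) had the lower one there. Vegfa measured 13.4, 14.8 and 14.6 CPM with tau against 19.6, 21.9 and 25.1 CPM untreated in SAN, and 40.5, 59.7 and 47.3 CPM against 31.4, 29.9 and 21.1 CPM in the second series, so that its direction turned. The calls of Hk1, Slc2a6 and Vegfa were each lost in 8 or more of the 12 fits without 1 library. What set the series apart is not given in the sources used here. The summed level of listed markers of monocytes and granulocytes (Ly6c2, Ccr2, Plac8, S100a8, S100a9 and Chil3) differed with it. Chil3 weighed most in the sum, with a median of 148.55 CPM over all libraries, against 13.6 for Ccr2, 9.39 for S100a8 and 6.63 for Ly6c2. Of the 4 tested, none passed the test of the series difference in tau effect in either genotype. Summed, they ran from 292 to 321 CPM with tau against 141 to 339 CPM untreated in SAN APOE3S/S libraries, and from 29.6 to 34.0 CPM against 36.4 to 38.3 CPM in second-series ones. In APOE3 they ran from 371 to 472 CPM with tau against 86.9 to 283 CPM untreated in SAN, and from 22.9 to 41.1 CPM against 23.4 to 46.4 CPM in the second series. S100a9 was at 0 in all 28 libraries and Plac8 in 24. The part of such cells, or of the series, in these differences was not tested.

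**Figure D3:**
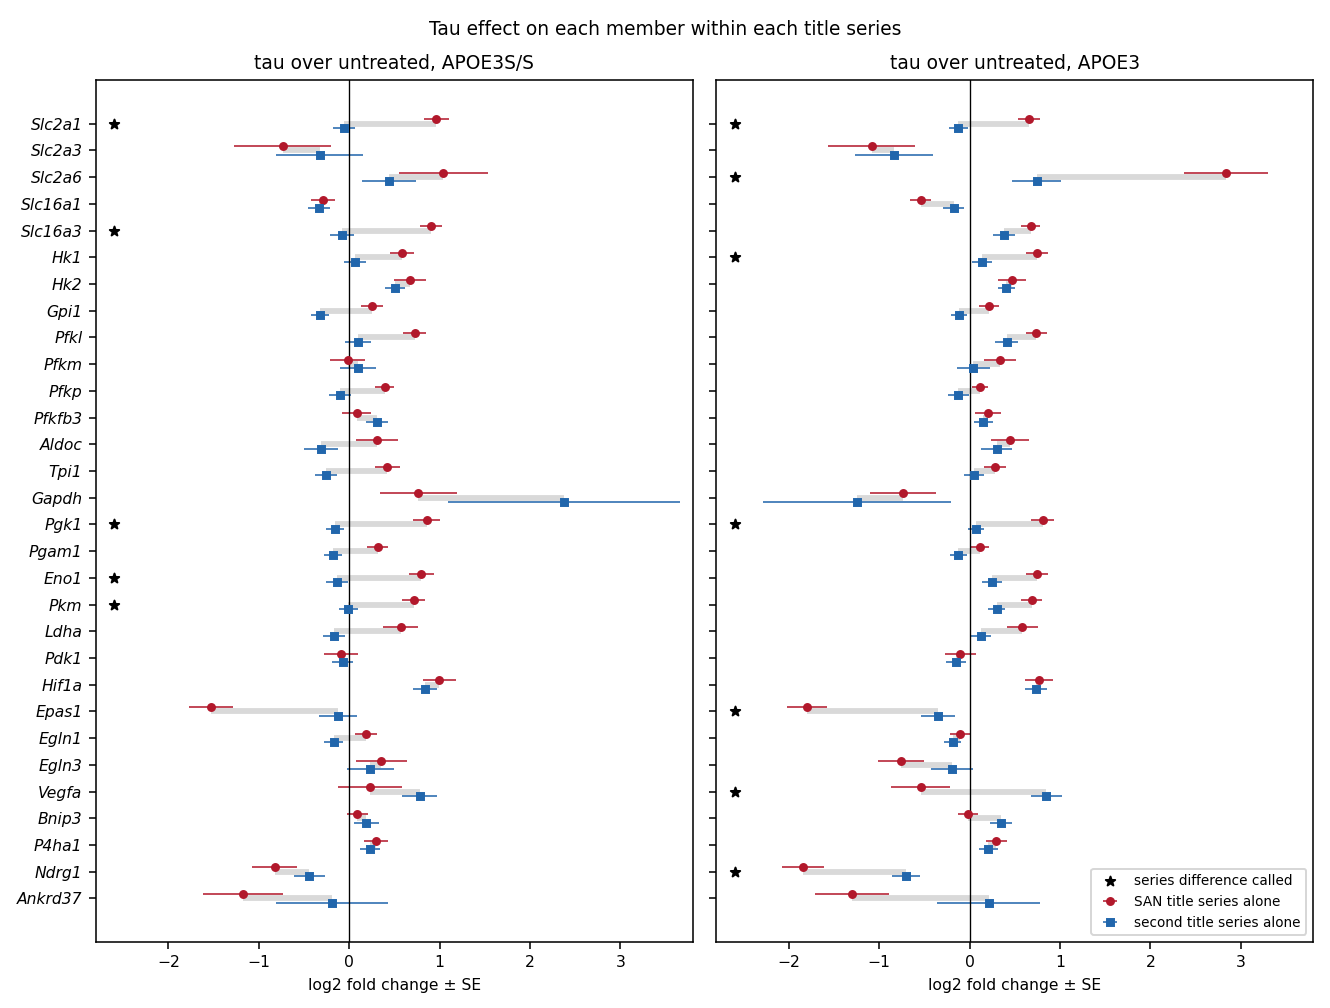
Log2 fold change of each tested member, tau over untreated, in SAN libraries alone (red circles) and second-series libraries alone (blue squares), with bars of 1 SE and a grey band joining them; stars mark members whose series difference passed the test. Hif1a and Hk2 keep their position in both series, and Slc2a1 and Pgk1 are starred in both genotypes.

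The genotypes were not told apart by these genes. No member passed the test of the tau effect in APOE3S/S minus that in APOE3 with edgeR, where 0.0% of all 13902 genes passed and DESeq2 called no member either. Unadjusted p was under 0.05 for 3 members (Egln3, Gapdh and Ndrg1) and for 284 genes in all. The differences for the members called in both genotypes were 0.18 ± 0.15 for Hif1a and 0.16 ± 0.13 for Hk2, with 95% intervals of -0.11 to 0.46 and -0.11 to 0.42 (log2). A missed threshold does not show equal responses within these intervals. For Ndrg1, which passed with edgeR in APOE3 alone, the difference was 0.57 ± 0.27 (adjusted p = 1.0). Untreated APOE3S/S and APOE3 libraries differed in no member with edgeR or DESeq2, beside 0.00719% of all genes with edgeR, and unadjusted p was under 0.05 for Gapdh and Slc2a6. Tau-treated APOE3S/S and APOE3 libraries also differed in no member with either tool, beside 0.0144% of all genes, with Egln1 alone under 0.05 unadjusted.

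Amyloid was given only in SAN libraries, so it was set against the SAN untreated ones. No member passed the test in APOE3S/S or APOE3 with edgeR, where 0.0% of 13864 genes passed in each. Unadjusted p was under 0.05 for 6 members and 1181 genes in APOE3S/S, and for 6 members and 1821 genes in APOE3. DESeq2 called no member in APOE3S/S and Ankrd37 in APOE3, and over all genes it called 2 lower in APOE3S/S, and 228 higher and 61 lower in APOE3. The median log2 change of the 30 members was 0.09 in APOE3S/S and -0.03 in APOE3. Hif1a changed by 0.27 ± 0.16 (adjusted p = 0.64) and 0.07 ± 0.14 (adjusted p = 0.836), and Hk2 by 0.27 ± 0.18 (adjusted p = 0.688) and 0.22 ± 0.16 (adjusted p = 0.57). Slc2a6 measured 94.6, 169 and 219 CPM with amyloid against 30.1 and 147 CPM untreated in APOE3S/S, and 95.5, 104 and 96.1 CPM against 31.04, 44.0 and 22.9 CPM in APOE3. The APOE3 groups did not overlap, yet the log2 change of 1.58 ± 0.49 did not pass (adjusted p = 0.233). Without untreated APOE3S/S replicate 2, the library with 147 CPM, 2 members passed with amyloid in APOE3S/S, Slc2a6 upward (2.51, adjusted p = 0.0143) and Vegfa downward (-1.76, adjusted p = 0.0288), on 1 untreated library that is taken to vary like the other groups. The amyloid effect in APOE3S/S minus that in APOE3 passed for no member and for 0.0% of all genes with edgeR, and for none with DESeq2, with 3 members and 514 genes at an unadjusted p under 0.05. Amyloid-treated APOE3S/S against APOE3 libraries gave no member and 0.0% of all genes with edgeR, while DESeq2 called Pkm among 31 genes higher and 28 lower. Unadjusted p was there under 0.05 for 8 members and 1673 genes.

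Set directly against amyloid within the SAN libraries, tau gave higher levels of 5 of the 7 lower glycolytic genes in APOE3. In APOE3S/S 1 of 30 members was higher with tau and none lower, beside 0.0707% and 0.0778% of all genes, and in APOE3 9 were higher and 2 lower, beside 4.11% and 3.2%. Unadjusted p was under 0.05 for 15 of the 30 members and 1326 of 14136 genes in APOE3S/S, and for 16 members and 3314 genes in APOE3. The 5 lower glycolytic genes called in APOE3 (Pgk1, Pgam1, Eno1, Pkm and Ldha) did not pass in APOE3S/S, with log2 differences of 0.30 to 0.44 and adjusted p of 0.171 to 0.556. Every tau library lay above every amyloid library there for these 5. They were picked by their APOE3 calls, and the share of all genes so separated was not counted. The difference between genotypes in this contrast was not tested. Slc16a3 was the one called in both. It measured 82.2, 73.1 and 92.3 CPM with tau against 50.2, 43.6 and 55.5 CPM with amyloid in APOE3S/S (log2 0.73 ± 0.10, adjusted p = 0.0124), and 65.3, 68.0 and 69.9 CPM against 44.5, 48.5 and 45.8 CPM in APOE3 (0.64 ± 0.10, adjusted p = 0.00566). All tau libraries stood above all amyloid ones in each genotype, although the APOE3S/S call was lost in 3 of the 6 fits without 1 library (amyloid replicate 1 or 2, or tau replicate 6). Slc2a1 measured 91.4, 103 and 117 CPM with tau against 58.8, 59.1 and 50.5 CPM with amyloid in APOE3 (0.98 ± 0.15, adjusted p = 0.00443). Pkm measured 2177, 2362 and 2330 CPM against 1566, 1556 and 1440 CPM (0.68 ± 0.10, adjusted p = 0.00461), and Pgk1 411, 428 and 458 CPM against 275, 268 and 254 CPM (0.79 ± 0.12, adjusted p = 0.00532). For these 3 genes the tau and amyloid libraries lay apart.

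Hif1a measured 286, 292 and 323 CPM with tau against 204, 202 and 192 CPM with amyloid in APOE3 (0.68 ± 0.16, adjusted p = 0.0201). Eno1 was higher by 0.59 ± 0.12 (adjusted p = 0.0121) and Ldha by 0.64 ± 0.15 (adjusted p = 0.0218). Pgam1 was higher by 0.31 ± 0.09 (adjusted p = 0.0454) and Pfkp by 0.31 ± 0.09 (adjusted p = 0.044). Epas1 was lower, at 57.9, 57.3 and 45.2 CPM with tau against 150, 136 and 145 CPM with amyloid (-1.34 ± 0.29, adjusted p = 0.0159), and so was Ndrg1, at 2.36, 2.33 and 2.03 CPM against 7.51, 5.19 and 5.54 CPM (-1.35 ± 0.35, adjusted p = 0.0301). Of the 11 calls in APOE3, those of Slc2a1, Pgk1, Pkm and Slc16a3 held in each of the 6 fits without 1 library, and the other 7 were lost in 3 or more of them.

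In APOE3S/S, the amyloid library labelled replicate 3 stood apart from its group. It held 219 CPM of Slc2a6, 46.3 CPM of Epas1 and 1.71 CPM of Ndrg1, against 94.6 and 169, 128 and 106, and 6.12 and 4.97 CPM in the other 2 amyloid libraries. Without it, 9 members passed the test of tau against amyloid in APOE3S/S in place of 1, among them Hif1a (0.89), Slc2a1 (0.83) and Pfkl (0.65 on the log2 scale). Tau and amyloid effects against untreated share the same untreated SAN libraries, and each is plotted with its own values.

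**Figure D4:**
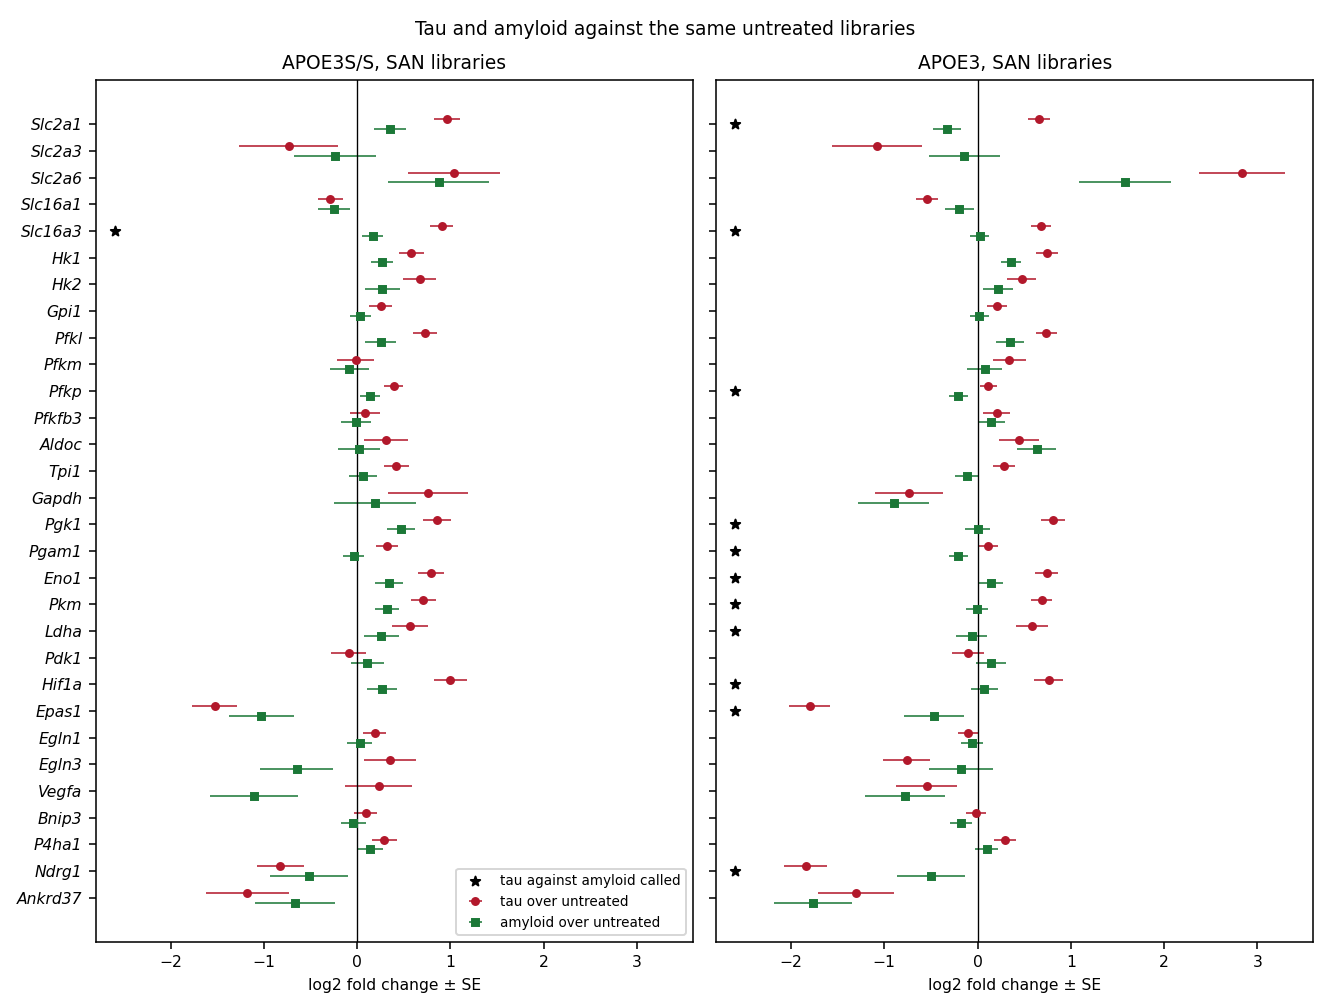
Log2 fold changes over untreated in SAN libraries, tau (red circles, fitted on SAN tau and untreated libraries) and amyloid (green squares, fitted on SAN amyloid and untreated libraries), with bars of 1 SE; stars mark members for which tau against amyloid passed the test. Slc16a3 is starred in both panels, and 10 further members in the APOE3 panel.

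Other genes of the same pathways, from lists chosen by name, give the setting. Their counts stand beside the same background as the members', 2.12% of all tested genes higher and 1.14% lower with tau in APOE3S/S, and 8.97% higher and 5.87% lower in APOE3. Of 20 tested further glycolytic genes, none rose and 1 fell with tau in APOE3S/S, and 4 rose and 2 fell in APOE3, with medians of 0.09 and 0.00 (log2). Those with the smallest p in APOE3 were Slc2a9, a urate and hexose transporter (0.65 ± 0.13, adjusted p = 0.00137), Slc2a8, the transporter GLUT8 (-0.35 ± 0.10, adjusted p = 0.0134), and Ldhb, the heart-type lactate dehydrogenase (-0.56 ± 0.15, adjusted p = 0.0142). Of 28 tested further HIF targets, 3 rose and 1 fell in APOE3S/S, and 5 rose and 2 fell in APOE3, with medians of 0.03 and 0.01. The smallest p were those of Narf (0.49 ± 0.09, adjusted p = 0.000594), Bhlhe40, a transcriptional repressor (-0.79 ± 0.14, adjusted p = 0.000849), and Nos2, the inducible nitric oxide synthase (3.61 ± 0.68, adjusted p = 0.000998). Nos2 was scarce, with a median of 0.724 CPM and at most 15.6 CPM. The tau effect of further HIF targets also differed between the series in APOE3, where 2 of the 28 had a higher log2 effect in SAN and 6 a lower one, beside 2.92% and 2.69% of all genes, while none passed in APOE3S/S. Of these, Hilpda, a lipid droplet protein, and Cxcr4, a chemokine receptor, gave series differences of -2.17 ± 0.35 (adjusted p = 0.00163) and -1.86 ± 0.35 (adjusted p = 0.0037), and the glycogen branching enzyme Gbe1 one of 1.30 ± 0.21 (adjusted p = 0.0019).

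Among 12 genes of pyruvate entry into the mitochondria, none was called in APOE3S/S, and in APOE3 the pyruvate dehydrogenase kinase Pdk3 rose (0.67 ± 0.15, adjusted p = 0.00322). Of 11 tested further HIF regulators, none was called in either genotype. Of 8 genes of the pentose phosphate pathway, none was called in APOE3S/S, and Rpe (0.31 ± 0.08, adjusted p = 0.0113) and H6pd (0.31 ± 0.11, adjusted p = 0.0462) rose in APOE3. Of 17 genes of the TCA cycle, none was called in APOE3S/S, and Idh2 fell in APOE3 (-0.24 ± 0.07, adjusted p = 0.031). The tau effect of both pathways' genes also differed between the title series. In APOE3S/S, 3 of the 8 pentose phosphate genes and 1 of the 17 TCA genes had a higher tau effect in SAN, beside 0.539% of all genes. In APOE3, 3 of the 8 and 4 of the 17 did, beside 2.92%. The 3 pentose phosphate genes in APOE3 were G6pdx, which catalyses the first step (0.89 ± 0.14, adjusted p = 0.00144), Pgd (0.76 ± 0.15, adjusted p = 0.00476) and the transketolase Tkt (0.53 ± 0.14, adjusted p = 0.034). None of the 8 and none of the 17 passed with a lower effect in SAN in either genotype. Of the further glycolytic genes, 1 of 20 had a higher effect in SAN and none a lower one in APOE3S/S, and in APOE3 1 was higher and 1 lower. Of the genes of pyruvate entry none was called in APOE3S/S and 1 was lower in APOE3, and no further HIF regulator was called. With tau, the median log2 change over the TCA genes was -0.02 in APOE3S/S and 0.07 in APOE3.

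Some markers of cell types were called with tau beside these genes. Their counts stand beside 2.12% of all tested genes higher and 1.14% lower in APOE3S/S, and 8.97% higher and 5.87% lower in APOE3. In APOE3S/S 2 of 11 tested microglial markers fell and none rose, and in APOE3 5 rose and 3 fell, with Trem2 lower in both genotypes. The summed level of the 12 microglial markers ran from 6242 to 7953 CPM with tau against 6184 to 9561 CPM untreated in APOE3S/S, and from 6154 to 7194 CPM against 6081 to 7170 CPM in APOE3. Of 4 tested monocyte and granulocyte markers, none was called in APOE3S/S and Ly6c2 rose in APOE3 (4.74 ± 0.70, adjusted p = 0.000186). The sums of that list are given above by title series. In APOE3S/S, 1 of 5 tested fibroblast and pericyte markers (Pdgfrb) rose, and no astrocyte or endothelial one was called. In APOE3, 1 of 7 astrocyte markers (Aldh1l1), 2 of 3 endothelial ones (Cdh5 and Pecam1) and 1 of 5 fibroblast and pericyte ones (Pdgfrb) rose. The 8 astrocyte markers summed to 43.1 to 69.1 CPM with tau against 29.2 to 64.0 CPM untreated in APOE3S/S, and to 33.3 to 61.9 CPM against 24.0 to 38.4 CPM in APOE3, mostly from Aldh1l1. The 7 endothelial markers summed to 9.42 to 18.7 CPM with tau against 5.22 to 19.2 CPM untreated in APOE3S/S, and to 10.6 to 21.2 CPM against 4.98 to 19.3 CPM in APOE3, with Cldn5 at 0 throughout. The 7 fibroblast and pericyte markers summed to 1.36 to 21.3 CPM with tau against 0.691 to 3.42 CPM untreated in APOE3S/S, and to 1.85 to 38.8 CPM against 1.30 to 16.6 CPM in APOE3. No tested neuronal or oligodendrocyte marker was called in either genotype. The part of other cell types in the changes above was not tested.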

How the data were processed

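Libraries were made from microglial RNA with a QuantSeq 3′ forward kit, per the labels' protocols, so reads come from transcript ends. The deposited tables hold raw counts per gene. GRCm38 (mm10) and DESeq2 1.38.3 are named in the submitters' processing notes, while the sources used here name no aligner, counting program or strand setting. The tau and amyloid tables share 5 untreated libraries. Of 60976 rows, 6360 without numbers, 81 exact repeats and 99 further rows of a symbol were removed. Of 24 symbols that read as dates, the 3 that stood more than once were removed too. This left 54424 genes, 29063 of them with a count. No pair of libraries of a group agreed within sampling noise.

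Counts were tested with edgeR 4.0.16 (quasi-likelihood, TMM scaling, filterByExpr, R 4.3.3) and Benjamini-Hochberg adjustment over all genes, called at adjusted p under 0.05. The SE is the log2 fold change divided by the square root of F. Tau effects and genotype effects came from 22 untreated and tau libraries with title series as a term (13902 genes), amyloid effects from 11 SAN libraries (13864 genes), and tau against amyloid from 17 SAN libraries (14136 genes). Series differences used a term for each group within a series. CPM is the count divided by the library's total over all genes kept and scaled to a common library size, without TMM factors. Fits were also run on simulated counts that held no title series effect, so that run does not cover the spread between the series. Alternatives were DESeq2 1.42.0, RLE scaling, no filter, each library left out, each series alone, no series term, the 2 compared groups alone and a replicate block. Figures used matplotlib 3.10.9.

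The members and the gene lists were chosen with earlier results of these data known. Every called member is named for each comparison (for tau in APOE3, the 12 with the smallest p in full), 7 members are given with tau whatever their call, and the other lists by counts and the 3 called genes of smallest p.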

Additional observations from a re-analysis of the deposited data

Results flagged for a closer look

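Among 124 groups of 4 to 6 libraries, 9 held 1 library far from the rest by Dixon's test at the 95% level, which chance alone gives in about 1 in 20 groups. Gapdh stood high in 3 of them, at 96.0 CPM in APOE3S/S tau replicate 3, 40.5 CPM in APOE3 tau replicate 3 and 112.0 CPM in untreated APOE3 replicate 6, all of the second series. Slc2a6 stood at 147 CPM in untreated APOE3S/S replicate 2. Slc2a3 stood at 1.39 CPM in APOE3 tau replicate 1 and at 1.53 CPM in untreated APOE3S/S replicate 1, and Egln3 at 8.28 CPM in the same untreated library. Pdk1 stood at 44.3 CPM in APOE3S/S tau replicate 5 and Epas1 at 79.7 CPM in APOE3S/S tau replicate 4.

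The tau effect differed between the title series, by a test of the difference itself, for 12 pairs of member and genotype. In APOE3S/S the SAN effect minus the second-series effect on the log2 scale was 1.01 for Slc2a1, 1.00 for Pgk1, 0.92 for Eno1, 0.71 for Pkm and 0.98 for Slc16a3. In APOE3 it was 0.77 for Slc2a1, 2.08 for Slc2a6, 0.59 for Hk1, 0.72 for Pgk1, -1.47 for Epas1, -1.41 for Vegfa and -1.16 for Ndrg1.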

How the results depend on the processing

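No member's called effect changed sign under any alternative run. RLE scaling left all 39 calls of the 13 comparisons in place, and so did DESeq2, which added 23. Members called with tau in APOE3S/S numbered 2, against 12 with no low-count filter, 6 with DESeq2, 9 in SAN alone and 0 with no series term, and 2 to 3 without 1 library. DESeq2 added Pfkl and P4ha1 upward and Epas1 and Ndrg1 downward there. Members called with tau in APOE3 numbered 13, against 4 in the second series alone and 6 with no series term, and 11 to 15 without 1 library. The series difference called 5 members in APOE3S/S, against 9 with no filter and 9 with DESeq2, and 0 to 11 without 1 library. In APOE3 it called 7, and 4 to 6 without 1 library. Tau against amyloid called 1 member in APOE3S/S, against 7 with no filter, 8 with DESeq2 and 0 with the 2 groups alone, and 0 to 9 without 1 library. In APOE3 it called 11, against 20 with the 2 groups alone, and 4 to 8 without 1 library. Amyloid called 0 members in APOE3S/S, against 3 with no filter and 0 to 2 without 1 library. In APOE3 amyloid called 0, against 6 with no filter, 1 with DESeq2 and 2 with the 2 groups alone. With no filter the tau effect by genotype gave 2 members, untreated genotypes 2, genotypes with tau 1 and genotypes with amyloid 4. Genotypes with amyloid gave 1 with DESeq2 and 2 with the 2 groups alone. Apart from these fits, each of the genotype comparisons gave 0 members without any 1 library. The cause of these differences was not tested. The loss of calls without 1 library comes with fewer samples.

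Title numbers are shared between genotypes, and correlations of deviations at a shared number ran from -0.158 to 0.17. Each group held only 2 or 3 such libraries a series, so its deviations from the group mean are tied to each other. The correlations therefore cannot decide whether the numbers pair the samples. A replicate block on the number gave 0 members for untreated, tau and amyloid genotype comparisons, as without it. Slc2a3, Ankrd37 and Adm had medians of 1.17, 0.954 and 0.391 CPM over all libraries, and few counts lie behind their values.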
